A study of Mus musculus with 87 samples.

Results

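The loci described here are the autosomal sites with the strongest signal for early transposon (ETn) sequence in C57BL/6 (B6) mice that also gave reads in every other animal sequenced. There are 1243 of them among 5018 ETn loci in the whole series and 4691 on the autosomes. They were chosen by their read level, given as reads per 1e6 ETn-paired reads of a library (RPM). A locus joins read clusters that lie within 1000 bp of each other. A member holds at least 10 RPM in each of 76 libraries, at least 100 RPM in each of 16 B6 libraries, and a mean of at least 400 RPM over the B6 libraries. The B6 level and the 10 RPM in every library are therefore set by the choice and are given as a description, with no test.

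DNA from 74 mice and from 2 lines of embryonic stem (ES) cells had been enriched with RNA probes against the ends of ETn long terminal repeats (LTRs), and 1 library per mouse or line was used, 76 in all. Most animals carry a deletion of Chr4-cl, a cluster of genes on chromosome 4 for zinc finger proteins with a KRAB repressor domain (KRAB-ZFPs), which the study's methods place in B6 ES cells. The 16 B6 libraries come from 12 Chr4-cl KO/KO mice (labelled F3, F4 or without a generation), 2 Chr4-cl WT mice and 2 Chr4-cl KO/WT ES lines. Labelled B6x129X1/SvJ (F1) are 13 mice, namely 8 KO/KO, 2 KO/WT and 3 WT for Chr4-cl, and below they are called F1. The genotype label of 4 of the 8 KO/KO mice adds (F2), a second generation that is not the F2 group below. The 2 KO/WT mice are sequenced parents. The 39 mice labelled B6x129X1/SvJ (F2), below F2, had a further cross to 129X1/SvJ and comprise 19 KO/KO, 12 KO/WT and 8 WT for Chr4-cl. Of the 19 KO/KO mice, 2 have a genotype label that adds (F2) as well. A mating on a mixed background of B6, 129/Sv and 129/Sv-CP gave 8 mice, of which 5 are KO/KO, 1 KO/WT and 2 WT for Chr2-cl, a KRAB-ZFP cluster on chromosome 2. Its deletion was made in R1 ES cells, and the labels give these 8 mice no Chr4-cl genotype. The DNA came from tail, ear, blood or spleen, the labels give no age in days or weeks for these libraries, and no sequenced animal is a pure 129 mouse. Many animals are littermates or parent and offspring, so the animals of a group share chromosomes and p-values measure the spread between related mice.

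ETn elements are LTR retrotransposons of the mouse that carry no functional proteins of their own and are copied with the proteins of the related MusD family. Reads paired with MusD repeats, also named ETnERV, were kept by the study as well. The loci called ETn here can therefore hold either family. A complete element has 1 LTR at each end of an internal region. Recombination between both LTRs removes the internal region and leaves a solitary LTR. Integration copies a few bases of the target, so that an insertion lies between short direct repeats, the target site duplication. KRAB-ZFPs bind many such elements and recruit heterochromatin factors to them in ES cells and early embryos.

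The capture started from 1274 probe sequences for ETn LTRs, of which 902 differ. The 3 most frequent are shown as examples of what the capture targeted, with the first or last 2 bases of the LTR in capitals. Probe 1 is the start of an LTR and has 52 copies in the probe set, probe 2 the end of an LTR with 50 copies, and probe 3 the end of another form of LTR with 23 copies.
Probe 1: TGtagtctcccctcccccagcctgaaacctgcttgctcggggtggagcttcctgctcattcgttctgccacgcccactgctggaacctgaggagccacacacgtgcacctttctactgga
Probe 2: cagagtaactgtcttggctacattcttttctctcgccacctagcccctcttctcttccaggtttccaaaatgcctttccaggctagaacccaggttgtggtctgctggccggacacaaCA
Probe 3: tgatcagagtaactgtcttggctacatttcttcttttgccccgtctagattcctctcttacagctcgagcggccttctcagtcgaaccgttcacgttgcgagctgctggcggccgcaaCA
Probe 1 lies letter for letter in 22 members, probe 2 in 43 and probe 3 in 2. Some whole probe of the set lies letter for letter in 524 of 1243 members (42.2%, 95% exact interval 39.4 to 45%).

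The junctions of a member with its flanks show what an insertion looks like in the reference genome. The following are read from NCBIM37, the same assembly as mm9, in the direction of the element, with 12 bases of flank, the 6-base target site duplication in capitals, and the first or last 12 bases of the element. The first pair belongs to the member with the highest B6 level among members with 1 LTR and a duplication, the second to the highest with 2 LTRs and a duplication, and the last to members that were low in F2 mice, described further on.
chr10:110349093-110352128, 5′ junction: ataatcactatcTTACTTtgtagcctcccc
chr10:110349093-110352128, 3′ junction: ccggacacaacaTTACTTattactagaaac
chr7:93489905-93498290, 5′ junction: gttttgactgtgGTATGGtgtaacctcccc
chr7:93489905-93498290, 3′ junction: ccggctgcaacaGTATGGcaaccccatcaa
chr10:92246400-92248859, 5′ junction: caaaactgtgtaCAGAAGtgtagtctcccc
chr10:92246400-92248859, 3′ junction: gcggccgcaacaCAGAAGcacatgtttgtc
chr9:50432957-50441019, 5′ junction: agtcttatggttATAGTGtgtagtctcccc
chr9:50432957-50441019, 3′ junction: ctggacacaacaATAGTGtcttaaaaattt
In the first, a single LTR of 367 bp on the minus strand (chr10:110350355-110350721) sits between both copies of its duplication. The second is an element of 6192 bp on the minus strand (chr7:93491326-93497517), with an LTR at each end. The third is a single LTR of 322 bp on the plus strand (chr10:92247666-92247987), and the fourth an element of 5730 bp on the minus strand (chr9:50434386-50440115).

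Library depth ran from 525419 to 1046650 ETn-paired reads over the 76 libraries, and a member held a median of 395 reads in a library (range 6 to 2222). One library stood apart, that of the B6 KO/KO mouse T2379. It placed 64.6% of its reads at the members against 69.8 to 71.8% in the other 15 B6 libraries, and 8.29% of members were under 0.5 of the B6 mean in it, whereas no other B6 library had more than 2 such members. Over the 16 B6 libraries the coefficient of variation of a member had a median of 9.62%, and without T2379 it was 4.62%, beside 4.95% from counting error alone. The counts of members below the B6 mean are given further on with and without it. The SD of the log2 ratio between 2 libraries was estimated from the median absolute deviation over the members, which single outlying members hardly move. It was 0.0680 to 0.0874 in the 5 pairs of technical repeat libraries. In 6 pairs from another tissue or age of the same animal it was 0.0722 to 0.0880. Both ranges lie below the 0.102 to 0.112 that counting error would give, and these 11 extra libraries enter no mean. Single members deviated more, by up to 0.598 to 0.875 in the technical pairs and 0.787 to 1.39 in the others.

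The members made up most of what the capture recovered. They held 70.5% ± 1.70 (SD, n = 16) of all ETn-paired reads in B6 libraries (70.9% ± 0.675 without T2379, n = 15), 70.5% ± 0.722 in F1 (n = 13), 70.9% ± 0.871 in F2 (n = 39) and 70.4% ± 0.358 in the Chr2-cl mating (n = 8). The share did not separate the groups beyond their spread. F2 minus F1 was 0.476 percentage points (permutation test, p = 0.0809, adjusted over 3 comparisons 0.243). Among F2 offspring, KO/KO minus KO/WT and WT was -0.0405 points with 13 against 17 mice (permutation within mating, p = 0.891, adjusted 0.912), and the Chr2-cl mating minus F1 was -0.0345 points (exact permutation test, p = 0.912, adjusted 0.912). All 3 tests were two-sided.

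Each member carried ETn LTR sequence in the B6 reference. Matching the probes to NCBIM37 gave 3010 autosomal LTR matches, of which 1495 (49.7%) lay in members. None of the 1243 members lacked a match (95% exact upper limit 0.296%), whereas 5 of 487 loci did that were called in every library with at least 100 RPM in B6 and a mean under 400 RPM, and 47 of 298 with under 100 RPM in a B6 library. These sets of 487 and 298 loci are the nearest to the members and are called the intermediate and the weak loci below. One match was found in 1001 members (80.5%), 2 in 232 (18.7%) and 3 in 10 (0.805%). Identity was measured to the closest of 26 representative probes, out of 902 different ones, and had a median of 93.9% in members, 97.5% in intermediate loci and 89.5% in weak loci. At least 1 whole probe was found letter for letter in 56.1% of intermediate loci (exact interval 51.5 to 60.5%), beside 42.2% of members (39.4 to 45%). The B6 level divided these sets, so the shares are descriptions and their difference was not tested.

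A solitary LTR is what recombination between the LTRs of an element leaves behind. The shares given here for loci with 1 match are descriptions, since the level chose the members. Over all loci with a match, its length had a median of 335 bp in members, 321 bp in intermediate and 124 bp in weak loci. A 6-base target site duplication around the single match was found in 556 of 1001 members with 1 match (55.5%, exact interval 52.4 to 58.7%), and in 29.3% of such intermediate loci (25.2 to 33.7%). A further match on the same strand lay within 10 kb outside the locus in 4.20% of members with 1 match, against 31.7% of intermediate and 27.1% of weak loci. Reads reached at least 500 bp past the match on both sides in 994 of 1001 members (99.3%), in 91.1% of intermediate loci and in 68.9% of weak loci. The width and the level come from the same reads.

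Members with 2 LTRs mostly held both in the same direction. The sequence between the LTRs was not examined, so whether the elements are whole was not tested. In 216 of 232 both matches were on 1 strand, and 141 of these pairs (65.3%) were enclosed by a target site duplication. The starts of the 2 matches lay a median of 5184 bp apart (range 555 to 8030 bp). This measure leaves out the length of the second LTR. The separations fell into classes, with 98 pairs from 5 to under 6 kb, 28 from 7 to under 8 kb and 69 under 5 kb. The 2 LTRs of a pair agreed in a median of 96.4% of aligned bases, 80 pairs in at least 98%, and 5 pairs were identical. Among 697 members with a duplication, with 1 LTR or with 2, 514 different 6-base duplications occurred, no one of them in more than 5 members, and 55.6% of their bases were A or T.

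Among the members, those with more LTRs had a higher B6 level. Members with 1 match had a median of 488 RPM (quartiles 450.0 and 527), those with 2 a median of 844 RPM (630.5 and 1056), and the 10 with 3 a median of 946 RPM. In the intermediate loci, which lie under the 400 RPM that members had to reach, the median was 314 RPM with 1 match (n = 460) and 286 RPM with 2 (n = 22). Within members of 1 match the level correlated weakly with the identity to the closest representative probe (Spearman rho -0.20, n = 1001 loci) and with the length of the match (0.22). Within members of 2 matches the same values were -0.55 and 0.46 (n = 232 loci). These correlations run across loci of the same libraries, which share depth and a common origin and are not independent replicates, and no test was made of them.

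**Figure D1:**
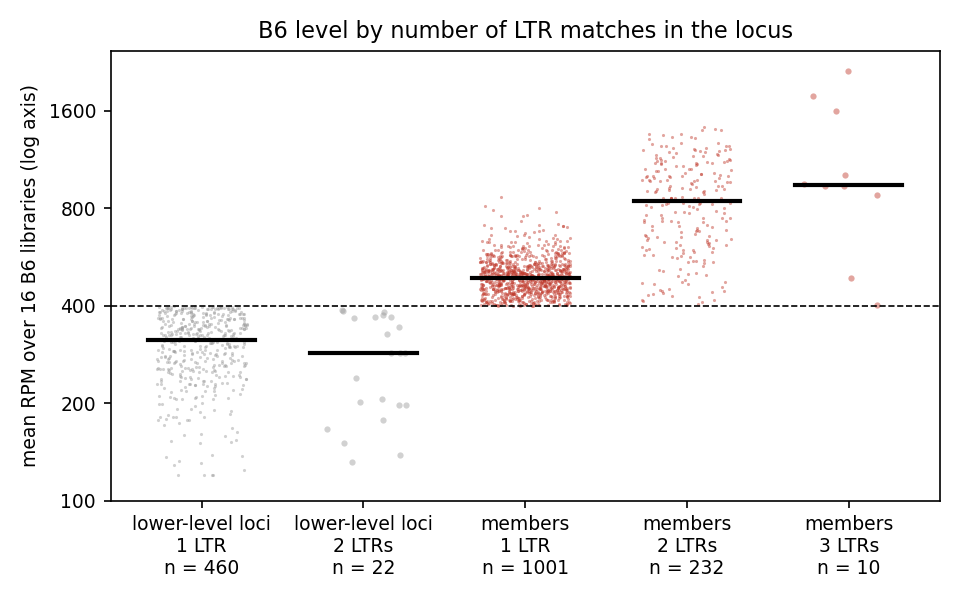
Mean RPM over the 16 B6 libraries on a log axis, 1 point per locus, by the number of LTR matches. Grey points are intermediate loci, red points members, black lines medians and the dashed line the 400 RPM that members had to reach. Members with 1 LTR crowd near 488 RPM and members with 2 LTRs reach a median of 844 RPM.

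The B6 mean of members ran from 400.1 to 2127 RPM a median of 500.3 RPM and quartiles at 456 and 573 RPM. On the inner side of the threshold stood chr7:4368321-4372008 with 400.1 RPM and chr9:37876168-37879238 with 400.6 RPM. On the outer side stood chr18:32200890-32203187 with 399.9 RPM and chr13:20216310-20219262 with 399.4 RPM. The threshold of 10 RPM in every library had its own edge. The member chr12:115514989-115521841 fell to 10.6 RPM in 1 library, and chr3:95198438-95206441 was left out at 9.45 RPM. In all, 32 loci passed both B6 thresholds and not this one, 15 of them with a library at 0 reads. A count of 0 allows up to 3 reads, which are 5.71 RPM in the shallowest of the 76 libraries, a B6 library. The libraries at 0 reads lie outside B6 and are deeper, so their limit is lower.

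The highest member, chr7:110620109-110630324, lay between genes, 1588 bp from the odorant receptor gene Olfr608, and held 3 LTRs, not all on the same strand. Its lowest, median and highest values were 2003, 2121 and 2224 RPM in B6, 1184, 1945 and 2311 RPM in F1, 1170, 1971 and 2362 RPM in F2, and 1766, 2005 and 2169 RPM in the Chr2-cl mating. The groups overlapped, and the lowest F1 and F2 libraries were below every B6 library. The next, chr4:112022990-112032759, also held 3 LTRs and lay 27388 bp from Skint9, one of a family of immunoglobulin-like genes expressed in skin and thymus. It ran from 1643 to 1918 RPM in B6 and took separate values in the other mice, as described further on. The third, chr15:75109105-75121279, 7858 bp from the Ly6 family gene Ly6f, held 1277, 1625 and 1690 RPM in B6 and 1571, 1655 and 1728 RPM in F2, with T2379 giving the lowest B6 value.

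The other members among the 10 highest all held 2 LTRs. A pair of them lay near or in Cyp2j11, a cytochrome P450 gene. The member chr4:95990461-95998897, in an intron, held 1403 ± 51.2 RPM in B6 (SD, n = 16) and 1484 ± 52 RPM in F2 (n = 39), and chr4:96046627-96056002, 32381 bp away from the gene, held 1354 ± 30.2 and 1447 ± 45.4 RPM. The member chr7:93489905-93498290, near the odorant receptor gene Olfr307, held 1429 ± 120 RPM in B6 and 1594 ± 51.2 RPM in F2. Those at chr8:128605897-128614614 and chr13:50439422-50448607 held 1394 ± 49.3 and 1393 ± 120 RPM in B6. An intron of Vmn2r22, a vomeronasal receptor gene, held chr6:123591404-123598924, whose values ran from 1117 to 1955 RPM in B6 and from 1128 to 1266 RPM in F2. Beside Zfp352, chr4:89891349-89899686 held 1236, 1350.1 and 1671 RPM in B6 and 803, 1250.1 and 1386 RPM in F2. T2379 was the highest B6 library at 4 of the 10 highest members, among them chr6:123591404-123598924.

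The members were spread over all autosomes. They ranged from 21 on chromosome 19 to 121 on chromosome 1. Per 10 Mb, chromosome 17 held the most (7.98) and chromosome 19 the fewest (3.42), with chromosome 13 at 7.48 and chromosome 2 at 3.74.

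Most members lay outside protein-coding genes. The span of their LTRs fell inside one in 255 of 1243 members (20.5%, exact interval 18.3 to 22.9%), whereas such genes cover 39.6% of autosomal bases. The share was 15.4% (12.3 to 18.9%) in intermediate and 14.3% (10.3 to 19.3%) in weak loci with an LTR match. Of the members, 240 lay in introns, 13 in an exon outside the coding sequence, and 2 in a coding exon, which were predicted or uncharacterised genes, Gm5805 and E030030I06Rik. A further 30 lay in genes of other types and 958 (77.1%) between genes, at a median distance of 48481 bp from the nearest protein-coding gene.

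Members in introns ran mostly against the gene. The LTR had the gene's strand in 40 of 238 members (16.8%, exact interval 12.3 to 22.2%). For members with 1 LTR it was 38 of 204 (18.6%) and for members with 2 LTRs 2 of 34 (5.88%, 0.720 to 19.7%). Intermediate loci had 16 of 71 (22.5%, 13.5 to 34.0%) and weak loci 12 of 34 (35.3%, 19.7 to 53.5%), with intervals that overlap that of the members. The read cluster is wider than the LTR and reached a coding exon in 74 members. The 8 of these with the highest B6 level lay at Zfp352, an intronless zinc finger gene of the early embryo, at Aass, an enzyme of lysine breakdown, at Cgn, a tight junction protein, at Gm5805, at Gm6788, at Tex14, needed for intercellular bridges of germ cells, at Gphn, which anchors inhibitory neurotransmitter receptors, and at Acot4, an acyl-CoA thioesterase. Their B6 means ran from 761 RPM at Acot4 to 1359 RPM at Zfp352. In 6 of these 8 members the LTR span lay inside the gene, and in each of the 6 it ran against it.

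**Figure D2:**
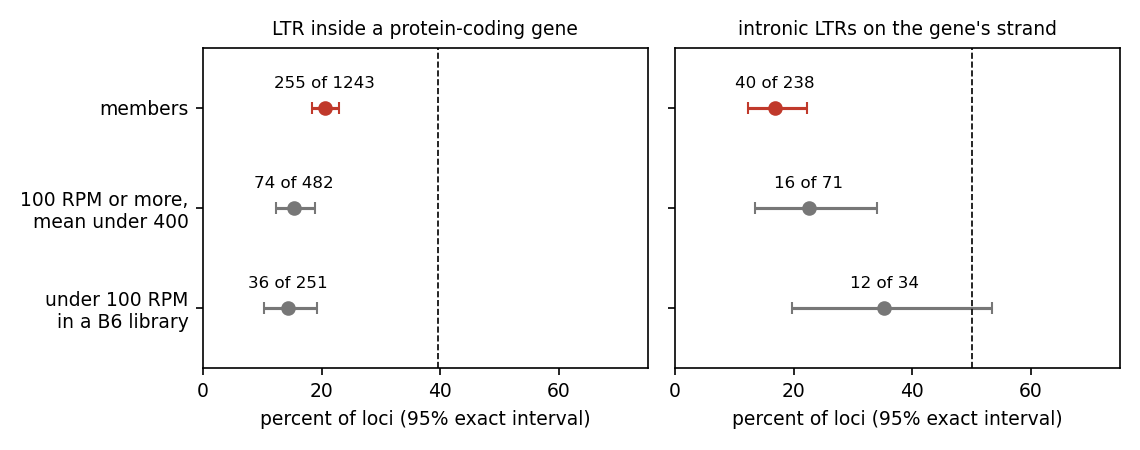
Percent of loci whose LTR span lies in a protein-coding gene (left) and percent of intronic LTRs on the strand of the gene (right), with 95% exact binomial intervals and counts above the points. The dashed lines mark the 39.6% of autosomal bases inside such genes and an even split of strands. The members, in red, lie at 20.5% and 16.8%.

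Across strains most members were near the B6 level. The ratio of the group mean to the B6 mean had a median of 1.03 in F1, 1.05 in F2 and 1.02 in the Chr2-cl mating. It lay between 0.75 and 1.25 for 1212 members in F1 (97.5%), 1183 in F2 (95.2%) and 1225 in the Chr2-cl mating (98.6%). Under 0.5 of the B6 mean were 5 members in F1, 24 in F2 and 3 in the Chr2-cl mating, and without T2379 6, 23 and 3. Under 0.75 were 31, 57 and 18, and without T2379 29, 55 and 17. These ratios were not tested, since a high B6 level chose the members.

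Being called in every library did not mean a level near that of B6, so the label of these loci as fixed in all strains did not hold for a subset. Of the members, 60 were under 0.5 of the B6 mean in at least 1 of the 60 libraries outside B6 (62 without T2379), 33 had a library under 100 RPM and 21 a library under 50 RPM. A single library had 4 to 22 such low members in F1 (median 14), 22 to 36 in F2 (median 27) and 3 to 9 in the Chr2-cl mating (median 7.5). In F2, 11 members were under 0.5 of the B6 mean in every library and 46 in some but not all. In F1 it was 1 and 54, and in the Chr2-cl mating 0 and 24. The remaining 1183 members were at 0.5 of the B6 mean or above in all 60 libraries outside B6.

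The 6 members with the lowest ratio of F2 to B6 were low in all 39 F2 mice. The lowest ratio, 0.0643, was at chr10:92246400-92248859, a single LTR in an intron of 4930485B16Rik. Its lowest, median and highest values were 327, 452 and 493 RPM in B6, 332, 373 and 500.4 RPM in F1 and 16.6, 27.6 and 39.5 RPM in F2, so that every F2 library lay below every B6 and F1 library. In the Chr2-cl mating 3 mice held 29.8 to 38.5 RPM and 5 held at least 352 RPM.

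At chr10:22224977-22233020, an element with 2 LTRs, the values were 764, 812 and 1328 RPM in B6 and 27.7, 56.9 and 87.1 RPM in F2. F1 was divided there, with 5 mice at 0.101 of the B6 mean or less and 8 at 0.712 or more. At chr13:67397220-67401099, an LTR in an intron of the zinc finger gene Zfp457, B6 held 568, 616 and 906 RPM and F2 held 26.3, 44.1 and 63 RPM, with 1 of 13 F1 mice and 4 of 8 mice of the Chr2-cl mating low. At chr9:50432957-50441019, beside Pih1d2, B6 held 588, 652 and 872 RPM, F2 24.6, 52.2 and 76.7 RPM, and the Chr2-cl mating 605, 617 and 646 RPM. This member was low in 2 F1 mice and in no mouse of the Chr2-cl mating.

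The last of the 6 were chr5:149451408-149454857 and chr1:93030420-93033571. The first held 600.1, 807 and 894 RPM in B6, 51.4, 70.9 and 100.005 RPM in F2 and 742, 808 and 851 RPM in the Chr2-cl mating, while 6 of 13 F1 mice were low. The second, 6775 bp from Lrrfip1, held 372, 507 and 1041 RPM in B6, 31.0, 54.4 and 83.9 RPM in F2, and was low in 9 F1 mice and 3 mice of the Chr2-cl mating. T2379 gave the highest B6 value at 4 of the 6. The stretch covered by reads was shorter in F2 as well. At chr10:92246400-92248859 it had a median of 1622 bp in B6 and 313 bp in F2, and at chr9:50432957-50441019 a median of 4555 bp and 1325 bp.

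**Figure D3:**
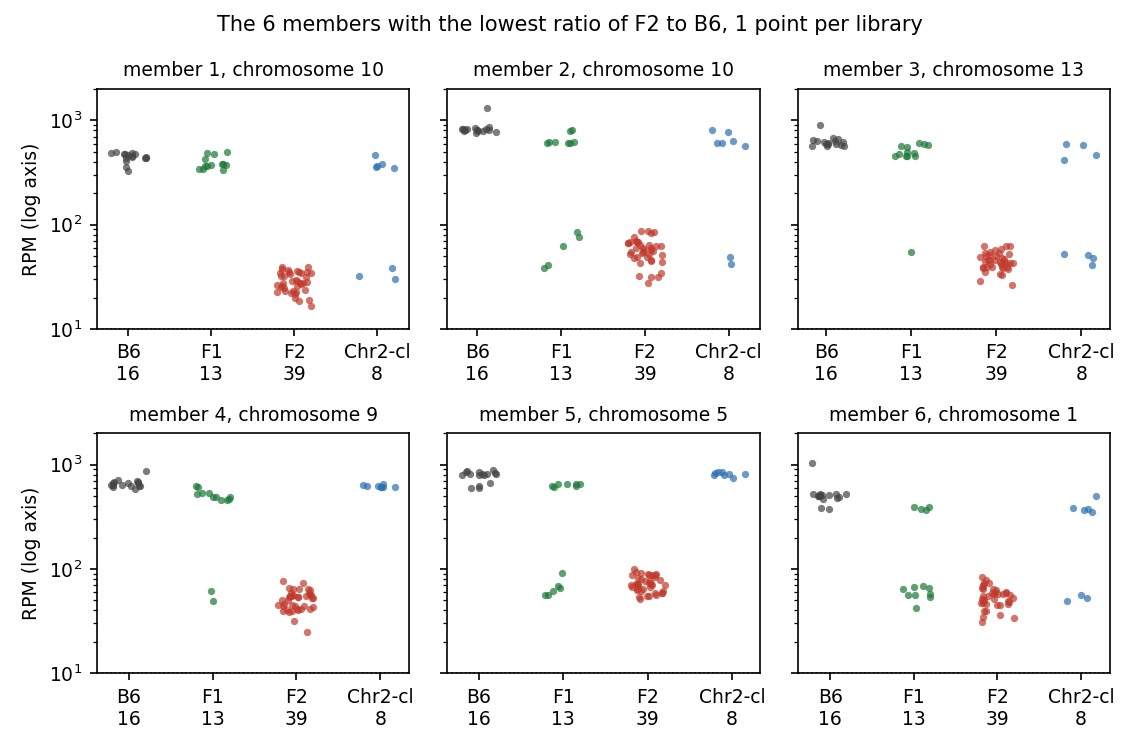
RPM on a log axis at the 6 members with the lowest ratio of F2 to B6, 1 point per library, by group with the number of libraries. In each panel all 39 F2 libraries lie below all 16 B6 libraries, and F1 and the Chr2-cl mating are divided in several panels.

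At the upper end, 3 members had an F2 mean over 1.25 times the B6 mean. The member chr3:93667385-93671570 held 422, 509 and 704 RPM in B6 and 648, 696 and 744 RPM in F2, a ratio of 1.35, and T2379 was its highest B6 library. For chr1:149810375-149813646 and chr3:142253571-142256592 the ratio was 1.27 and 1.26, and at the latter T2379, with 228 RPM, was the lowest B6 library.

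The low values were not spread evenly between absence and the B6 level. In 33 members the lowest value outside B6 was under 0.2 of the B6 mean, and these members give 1980 values over the 60 libraries. Of these, 780 were under 0.35 of the B6 mean, with the highest at 0.308, none lay between 0.35 and 0.6, 670 lay from 0.6 to 0.85, with the fullest bin of 0.05 starting at 0.70, and 530 were at 0.85 or above. Of the 33, 15 have 1 LTR, 17 have 2 and 1 has 3. In the 27 members with a lowest value of 0.2 to 0.5 of the B6 mean there was no such empty range, with 149, 501, 228 and 742 values in the same 4 classes. As the members were sorted by their own lowest value, these counts describe them and were not tested.

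At chr4:112022990-112032759, the member with the next highest B6 level after the first, the values fell into 3 separate ranges. In F1, 3 mice held 55.6 to 71.3 RPM, 8 held 1295 to 1436 RPM and 2 held 1750 to 1877 RPM. In F2, 10 mice held 47.9 to 111 RPM, 25 held 1310 to 1461 RPM and 4 held 1800 to 1857 RPM. In the Chr2-cl mating the same ranges held 1, 3 and 4 mice, and no value in any of the 3 groups lay between 111 and 1295 RPM.

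**Figure D4:**
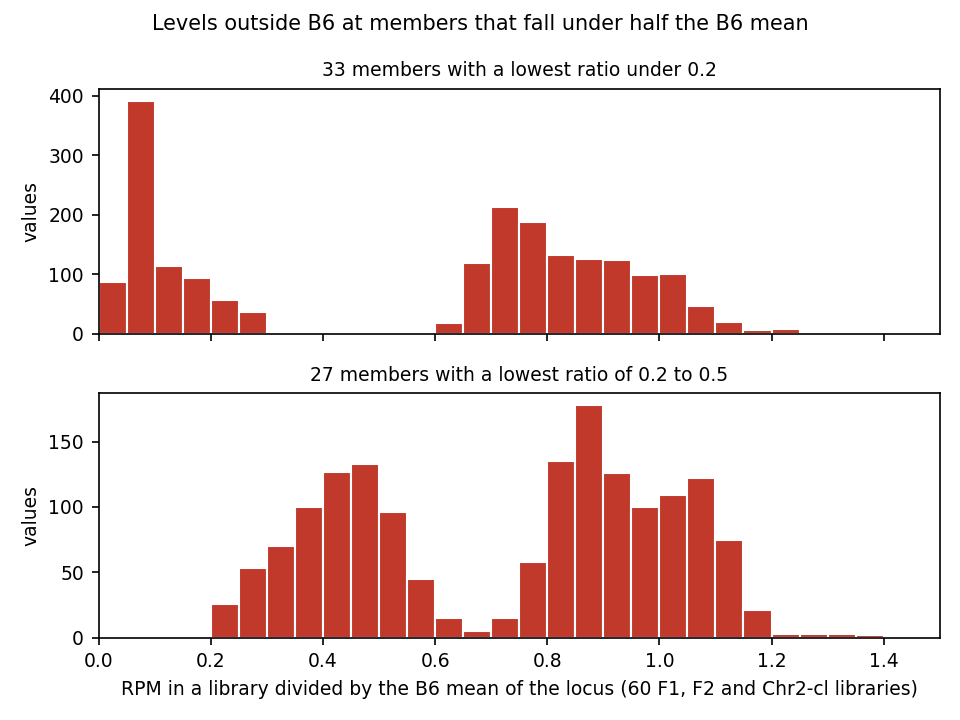
Numbers of values by the ratio of RPM in a library to the B6 mean of the locus, over 60 libraries outside B6, in bins of 0.05. In the 33 members with a lowest ratio under 0.2 (top) no value lies between 0.35 and 0.6, and in the 27 members with a lowest ratio of 0.2 to 0.5 (bottom) 501 values do.

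Where a mouse had extra libraries, the side of the empty range was the same in each. These 11 libraries came from testis, brain, blood, kidney or tail of the F2 mice C6733, C7416, C7415, C5734, C5731 and H03387. All those from testis, brain, blood and kidney came from C6733, and 5 of the 11 were technical repeats. In each, all 33 members were on the same side as in the main library of that mouse, with 15 to 21 members low. Members close together were low in the same animals. The pair chr6:128883448-128892956 and chr6:128945344-128949362, both in Clec2g, a C-type lectin gene, was low in the same 32 libraries. The pair chr4:112022990-112032759 and chr4:112392616-112398016, 359856 bp apart, was low in the same 14. At chr3:121446769-121450481 and chr3:121454604-121459608, 4122 bp apart, 45 and 42 libraries were low, 42 of them shared, and at chr1:90007219-90017001 and chr1:90992033-90999970, 975031 bp apart, 22 and 23, with 22 shared. These pairs were chosen for being low and near each other, so their sharing was not tested.

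The comparison of F2 with F1 asks what a further cross to 129X1/SvJ changed. Both groups had to hold 10 RPM in every library, but neither entered the higher thresholds. The loci tested include ones without 10 RPM in every library, which could not be members. The shares of members and of all loci are therefore not on an equal footing, here and in the comparisons further on. By the quasi-likelihood test of edgeR over 2605 loci, 18 members (1.448%) were lower in F2 by at least 1.5-fold at an adjusted p under 0.05, beside 2.84% of all loci tested. Higher were 2 members (0.161%), beside 0.998% of all loci. Without a limit on the fold, 68 members were lower (5.47%, beside 6.18% of all loci) and 183 higher (14.7%, beside 10.8%). The 183 depended on the scaling and on the libraries, since 68 members were higher with TMM factors, 68 with DESeq2, 95 without the sequenced parents and 9 with library numbers 1 to 64 alone, where the 68 lower members became 36. These numbers hold all 13 F1 libraries and 7 of the 39 F2 libraries. The median log2 change over the members was 0.03 in the main scaling and 0.01 with TMM.

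The members with the largest fall in F2 were 5 of the 6 described above and the member in Clec2g. The log2 change was -3.78 (SE 0.08) at chr10:92246400-92248859, where the group means were 28.6 ± 6.21 RPM (SD, n = 39) and 395 ± 57.4 RPM (n = 13), edgeR adjusted p = 1.01e-39. It was -3.41 at chr13:67397220-67401099, -3.13 at chr9:50432957-50441019, -2.91 at chr10:22224977-22233020 and -2.37 at chr5:149451408-149454857, with edgeR adjusted p from 7.87e-30 to 8.59e-13. With tail libraries alone it was -3.61 at chr10:22224977-22233020 (edgeR adjusted p = 1.24e-22) and -1.31 at chr5:149451408-149454857 (0.000332). At chr6:128883448-128892956, F2 held 18.4, 41.5 and 517 RPM and F1 42.3, 505 and 745 RPM. Its log2 change was -1.95 (SE 0.47), adjusted p = 0.00177, with tail libraries alone -1.67, adjusted p = 0.130, and with library numbers 1 to 64 alone -3.81, adjusted p = 6.10e-07. The other 12 members that fell by at least 1.5-fold had log2 changes of -0.60 to -1.72.

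Higher in F2 was chr11:7860576-7865542, a single LTR 469614 bp from Tns3. Its lowest, median and highest values were 91.3, 297 and 420 RPM in F2 and 99.1, 113 and 126 RPM in F1, so F1 mice were uniformly low and F2 mice divided, beside a B6 mean of 443 RPM. The log2 change was 1.03 (SE 0.23), adjusted p = 0.000683, and adjusted p = 0.0563 with tail libraries alone. The other, chr7:66634441-66642559, held 80.2, 667 and 792 RPM in F2 and 84, 520 and 753 RPM in F1 (log2 change 0.59, SE 0.18, adjusted p = 0.0131). It did not pass with tail libraries alone (adjusted p = 0.106) or with the first 64 library numbers (0.617).

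The loss of Chr4-cl itself, the question of the study, was compared in 30 F2 offspring of 3 matings from tail DNA. The comparison set 13 KO/KO against 17 KO/WT or WT mice, with mating as a term. The 17 were 8 KO/WT in mating 1, 4 WT and 1 KO/WT in mating 2, and 4 WT in mating 3. The log2 change therefore mixes KO/KO against KO/WT with KO/KO against WT. Among 2575 loci tested by edgeR, no member was lower in KO/KO (beside 0.194% of all loci, and none with DESeq2) and 1 was higher by at least 1.5-fold (0.0805% of members, beside 0.0388%). At an unadjusted p under 0.05 stood 46 members (3.70%, beside 4.58% of all loci tested). At an adjusted p under 0.05 alone there were 2 members, both higher (0.161%, beside 0.0777% of all loci), and none lower. Both lie on chromosome 4.

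The first, chr4:147689506-147692275, is a single LTR 28690 bp from Ptchd2, which encodes a transmembrane protein of the patched family. In the 3 matings its KO/KO offspring held 462, 508 and 573 RPM, the 9 KO/WT offspring 353 to 394 RPM, and the 8 WT offspring 21.5 to 50.4 RPM. The 3 genotypes did not overlap, and each held 1 of the 3 ranges described above. In F1, 8 KO/KO mice held 500 to 571 RPM, 2 KO/WT mice 369 and 384 RPM, and 3 WT mice 26.0, 27.1 and 38.3 RPM. Among B6 libraries there was no such order, with 501 and 507 RPM in the 2 WT mice and 468 to 532 RPM in 12 KO/KO mice. The 8 mice of the Chr2-cl mating held 352 to 513 RPM.

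In the fit the log2 change was 1.82 (SE 0.35), adjusted p = 0.00640. Without the mating term it was 1.23 with an adjusted p of 0.880, and under the other alternatives the adjusted p ran from 9.53e-07 to 0.0142. As the deletion was made on a B6 chromosome, the Chr4-cl genotype and the strain origin of the chromosome 4 around it cannot be told apart in F1 and F2 mice.

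The second, chr4:143802192-143805106, is a single LTR 479 bp from C87977. F2 offspring held 372, 445 and 475 RPM in KO/KO, 381 to 430.8 RPM in KO/WT, and 199 to 412 RPM in WT, where 7 of 8 mice were at 248 RPM or less. The WT mouse at 412 RPM, from mating 3, overlapped the other genotypes. The log2 change was 0.48 (SE 0.10), adjusted p = 0.0151, and without the mating term 0.41 with an adjusted p of 0.544, while the other alternatives gave 0.000350 to 0.0270. Again B6 showed no such order, as its WT mice held 413 and 439 RPM.

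**Figure D5:**
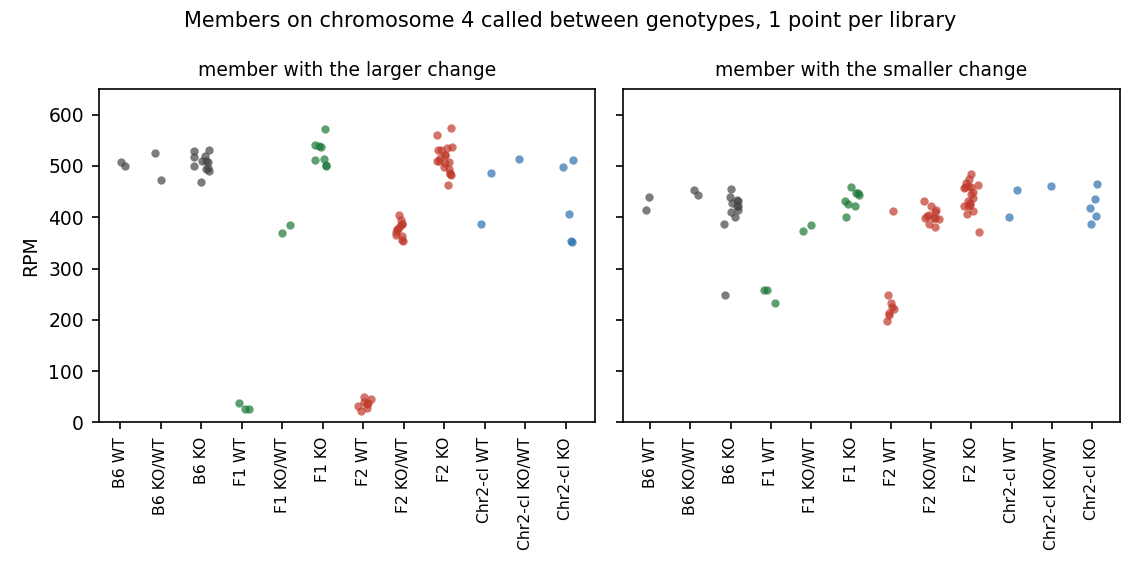
RPM at the 2 members on chromosome 4 that were called between Chr4-cl genotypes, 1 point per library, by group and genotype (for the Chr2-cl mating the genotype is that of Chr2-cl). In F1 and F2 the WT mice of the left panel lie between 21.5 and 50.4 RPM and the KO mice between 462 and 573 RPM, whereas B6 WT mice lie at 501 and 507 RPM.

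The Chr2-cl mating and F1 are both mixtures of B6 with a 129 strain. Here too the loci tested include ones without 10 RPM in every library, which could not be members. Over 2633 loci, edgeR called no member lower by at least 1.5-fold in the Chr2-cl mating (beside 2.13% of all loci, and none with DESeq2) and 2 higher (0.161% of members, beside 1.22%). Without a limit on the fold 42 members were lower (3.38%, beside 4.44%) and 28 higher (2.25%, beside 2.62%). With TMM 26 were lower, with DESeq2 27 were lower and 43 higher, and with ear libraries alone 10 were lower and 16 higher. At an unadjusted p under 0.05 stood 224 members (18.02%, beside 17.1% of all loci tested).

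The member chr8:19430530-19440622, 5798 bp from the beta-defensin gene Defb8, held 850, 1011 and 1047 RPM in the Chr2-cl mating and 423, 453 and 490 RPM in F1. The groups did not overlap, and the B6 mean was 898 RPM. Its log2 change was 1.09 (SE 0.04), adjusted p = 1.36e-14. The member chr11:7860576-7865542 was higher here too, with 98.6, 330 and 411 RPM in the Chr2-cl mating against the same F1 mice as above (log2 change 1.23, SE 0.23, adjusted p = 0.00106, and 0.0848 with ear libraries alone). Its groups overlapped, as some mice of the mating were as low as F1.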

How the data were processed

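ETn capture-seq libraries of genomic DNA were analysed. According to the methods, the authors mapped both mates of 50 bp read pairs separately with Bowtie to mm9, kept unique hits and removed duplicates with samtools. They kept reads whose mate lay in an ETn or ETnERV repeat and joined them within 1000 bp with bedtools (tool versions: not given in the sources used here). Per the files, the deposited numbers are raw read counts for each region of a single library. A read cluster marks the flanks of an element, and unique mapping leaves repeated flanks out.

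Counts were divided by the library total and summed over loci. The members and lists were chosen with earlier results of these data known. Groups follow the labels. Probes were matched to NCBIM37 with blastn 2.17.0 (80% identity over 80 bases, matches joined within 250 bp, assigned within 500 bp of a locus), and a 6-base duplication was sought within 8 bases of the LTR ends. Genes came from GENCODE for that build. Loci with a mean of 10 reads were tested with edgeR 4.0.16 in R 4.3.3 (library total as size, Benjamini-Hochberg over all loci, threshold 0.05). On simulated counts with changed loci at each of 4 folds, 100% were recovered in each comparison and 0.288 to 0.457% of unchanged loci were called. All simulated loci had the same dispersion, the median of the real loci, and independent libraries. The simulation therefore does not cover members whose values divide between related mice. Single values were compared by permutation (100000 resamples, or exact). Binomial intervals are exact at 95%, run over numbers of loci and cover counting error only, as does the limit of 3 reads for a value of 0, since reads carry no molecular identifiers.

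Named loci are the 10 with the highest B6 mean, the 6 lowest and 3 highest ratios of F2 to B6, up to 6 called members with the largest change in each comparison, those beside the thresholds, and the 8 highest whose cluster reaches a coding exon. Alternatives were other thresholds, joining distances, scalings (TMM, DESeq2 1.42.0), filters, denominators, library sets and tissues. Leaving T2379 out of the B6 means was added after seeing the data.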

Additional observations from a re-analysis of the deposited data

Results flagged for a closer look

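Within labelled groups of 4 to 10 libraries, single values far from the others were sought by the gap to the nearest value over the range. Of 11 groups tested for the percent of reads at the members, 2 had such a value, and of 25 members tested in the Chr2-cl mating, 1 did. Chance gives about 1 in 20. In the group of 4 B6 KO/KO mice labelled without a generation, T2379 had 64.6% of its reads at the members and the others 70.4 to 71.5%. Among the KO/KO offspring of mating 1, C6733 had 71.2% and the other 4 mice 69.9 to 70.1%. In the Chr2-cl mating, C6768 held 51.6 RPM at chr4:112022990-112032759, and the other 7 mice 1343 to 1837 RPM. That value lies in the low range which 10 F2 and 3 F1 mice also took at this member.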

How the results depend on the processing

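The number of members stayed within 1.5 times of 1243 under 8 of 9 alternatives (1235 to 1512, with 1260 without the libraries of C5733 and T2379, 1223 of them shared). It was 626 at a mean B6 threshold of 500 RPM. Among the shares of reads, the difference between KO/KO and other F2 offspring was -0.0405 points and turned to 0.0123 points with reads at loci called in every main library as denominator (adjusted p = 0.834 by permutation), and no share passed the threshold under any alternative run. With F2 against F1, members higher by at least 1.5-fold numbered 1 in place of 2 with TMM and with DESeq2. The number was also 1 with library sizes from loci called in every library, with library numbers 1 to 64 and with tail libraries alone. The 1 member called with tail libraries alone was neither of the 2. Members higher at an adjusted p under 0.05 numbered 68 with TMM, 68 with DESeq2, 9 with library numbers 1 to 64 and 95 without the sequenced parents, in place of 183, and members lower numbered 36 with library numbers 1 to 64, in place of 68. Between Chr4-cl genotypes both counts of higher members were 0 without the mating term. For the Chr2-cl mating against F1, members lower numbered 26 with TMM, 27 with DESeq2 and 10 with ear libraries alone, in place of 42. Members higher numbered 43 with DESeq2 and 16 with ear libraries alone, in place of 28. With ear libraries alone, 3 members were higher by at least 1.5-fold, and only 1 of them was among the 2 called in the main setting. The smaller library sets hold fewer mice, and the cause of the other shifts was not tested. The log2 changes of named loci kept their direction in all 78 recomputed values, and 7 of them no longer passed. The genotype comparison was not run with library numbers 1 to 64 alone, which hold too few tail libraries of KO/WT and WT offspring. LTR matches of 90% identity over 100 bases left 926 members with a match and 773 with exactly 1. No paired analysis was possible because the labels hold no replicate number that ties a mouse of one group to a mouse of another. As the rule asked for 10 RPM in every library, the lowest count of a member in a library was 6 reads. Passing 10 RPM does not by itself tell presence from absence. Whether the insertion was present in the libraries under 0.35 of the B6 mean at the 33 members above was not tested.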
